A study of Homo sapiens with 15 samples.

Results

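The cluster of miR-424 and miR-503 is a group of miRNA hairpins on the long arm of the human X chromosome, and its levels were followed in U87-MG cells, an established glioblastoma cell line, in the presence and absence of the hypoxia-inducible factors HIF1α and HIF2α. The members were taken from a list of 7 mature miRNAs of the cluster: hsa-miR-424-5p, hsa-miR-424-3p, hsa-miR-503-5p, hsa-miR-542-3p, hsa-miR-542-5p, hsa-miR-450a-5p and hsa-miR-450b-5p. All 7 were among the 1707 mature miRNAs counted, and 6 were among the 562 that passed the filter on low counts. Only miR-542-5p did not pass it. The miRNA-Seq libraries comprised 5 groups of 3 replicates. Cells with wild-type HIF genes were cultured in 21% O2 (normoxic control) or 1% O2 (hypoxic control) for 24 h, and cells lacking HIF1α (HIF1α-KO), HIF2α (HIF2α-KO) or both (HIF1α/HIF2α-KO, the double knockout) spent the same 24 h in 1% O2. The knockouts were made with CRISPR/Cas9 by lentiviral transduction, and the sources used here do not say whether the knockout cells were clones or pools. No knockout group was cultured in 21% O2, so the effect of a knockout was measured under hypoxia only.

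A miRNA hairpin is cut by Drosha and Dicer into a duplex, of which usually 1 strand is loaded into an Argonaute protein and guides it to mRNAs that pair with its seed, bases 2 to 8 of the strand. The strand from the 5′ side of the hairpin is named 5p and that from the 3′ side 3p. miR-424-5p and miR-503-5p belong to the extended miR-15/16 family, known for repressing cell cycle genes such as CCND1, CCNE1 and CDC25A. miR-424-5p is also known as a miRNA induced by hypoxia in endothelial cells, where it targets CUL2 and so stabilizes HIF-1α. miR-542-3p is known to target BIRC5, which encodes the apoptosis inhibitor survivin.

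Mature sequences of 6 of the 7 members were found in RefSeq (GRCh38.p14) and are shown because their seeds set apart the targets of the members. They are written 5′ to 3′ with the seed in capitals.
hsa-miR-424-5p: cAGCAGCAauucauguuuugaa
hsa-miR-503-5p: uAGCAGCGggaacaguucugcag
hsa-miR-424-3p: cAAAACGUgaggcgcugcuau
hsa-miR-542-5p: uCGGGGAUcaucaugucacgaga
hsa-miR-450a-5p: uUUUGCGAuguguuccuaauau
hsa-miR-450b-5p: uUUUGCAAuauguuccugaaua
The seed of miR-424-5p, AGCAGCA, is also that of miR-15a-5p, miR-15b-5p, miR-16-5p, miR-195-5p and miR-497-5p, and is held by 7 of the 2370 mature miRNAs in the RefSeq table. The seed of miR-503-5p differs from it at 1 of the 7 bases and is held by no other miRNA of the table. The seeds of miR-450a-5p and miR-450b-5p also differ from each other at 1 base, and these miRNAs have the same base at 16 of 22 positions. The seed of miR-424-3p is also held by no other miRNA of the table. The GC content of the mature miRNAs, which bears on the measurements below, was 36.4% for miR-424-5p, 52.4% for miR-424-3p, 56.5% for miR-503-5p, 31.8% for miR-450a-5p and 27.3% for miR-450b-5p.

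The cluster holds 6 hairpin genes within 6527 bases of chromosome X, all on the minus strand (GENCODE v29, GRCh38). In the direction of transcription they are MIR424 (chrX:134546614-134546711), MIR503 (chrX:134546328-134546398), MIR542 (chrX:134541341-134541437), MIR450A2 (chrX:134540508-134540607), MIR450A1 (chrX:134540341-134540431) and MIR450B (chrX:134540185-134540262). MIR424 and MIR503 are 215 bases apart, while MIR503 and MIR542 are separated by 4890 bases, and 733, 76 and 78 bases separate the hairpins from MIR542 to MIR450B. MIR503HG, a long noncoding RNA gene on the same strand (chrX:134543337-134546632), starts inside the MIR424 hairpin and holds MIR503 in an intron, and the other 4 hairpins lie outside the annotated genes of this release. miR-450a-5p is made from both MIR450A1 and MIR450A2, whose mature 5p sequences are identical, so its reads cannot be assigned to either gene.

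**Figure D1:**
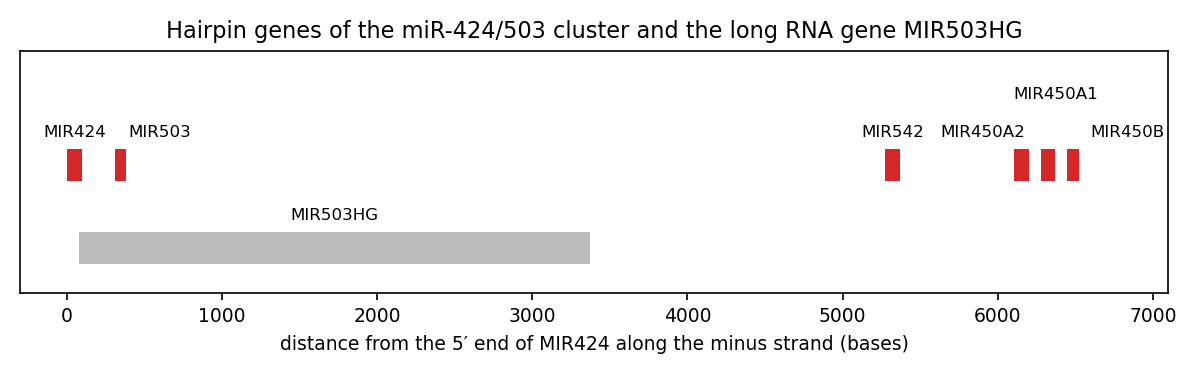
Positions of the hairpin genes (red) and of MIR503HG (grey), plotted as the distance in bases from the 5′ end of MIR424 along the minus strand. MIR424 and MIR503 stand apart from the other 4 hairpin genes by 4890 bases.

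The window from 250 bases before to 50 bases after the start of MIR503HG (RefSeq GRCh38.p14, chrX:134546581-134546880, minus strand) is shown because MIR424 and MIR503 lie at this start and because HIF1 and HIF2 are known to bind DNA at the core motifs ACGTG and GCGTG. Both motifs, on either strand, were searched for and the matches are in capitals.
MIR503HG start: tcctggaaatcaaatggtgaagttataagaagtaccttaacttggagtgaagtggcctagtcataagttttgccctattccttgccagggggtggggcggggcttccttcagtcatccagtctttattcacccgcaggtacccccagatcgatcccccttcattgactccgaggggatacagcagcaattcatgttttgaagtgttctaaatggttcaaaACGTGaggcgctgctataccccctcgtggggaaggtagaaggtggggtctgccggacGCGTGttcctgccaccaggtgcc
ACGTG occurred once, starting 30 bases before the start of MIR503HG and within the part of the hairpin that becomes miR-424-3p, and GCGTG occurred once, starting at base 28 of MIR503HG. At least 1 of these motifs is present in 48.4% of the 35116 windows of the same length in the table, and 23.1% hold 2 or more matches, so that matches of this kind are common. These data hold no measurement of HIF binding.

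Total counts per library ranged from 10360337 to 22496373, and 3 counts corresponded to at most 0.290 CPM. Levels are given as CPM after TMM normalization, that is, counts as a share of the library total (CPM) scaled by a factor for the composition of each library, with the mean ± SD of 3 replicates. Nothing in the labels says that replicates came from separate cultures, so p-values measure the spread between these samples. In 7 libraries the miRNAs of high GC content were relatively high and in 8 relatively low, with slopes from -0.17 to 0.26 log2 units per 10 percentage points of GC. The libraries with a positive slope were the 3 of the normoxic control, replicate 1 of the hypoxic control, replicate 3 of HIF1α-KO and replicates 1 and 2 of HIF2α-KO. The summed level of both miR-126 strands, markers of endothelial cells, was between 14.04 and 50.8 CPM in 9 libraries and between 4.01 and 6.64 CPM in 6 libraries of 4 groups. Of the other marker lists, the blood miRNAs summed to 4.54 to 24.1 CPM, the epithelial miRNAs to 37.6 to 118 CPM and the neuronal miRNAs to 1830 to 9462 CPM. miR-21-5p and miR-10b-5p, which are abundant in glioma cells, summed to 163651 to 260430 CPM. Nearly all of the neuronal sum was miR-9-5p, at 1829 to 9462 CPM. The other listed neuronal miRNAs were nearly absent, with 0 to 6 counts of miR-124-3p and 0 to 9 of miR-219a-5p per library. The knocked-out genes are not miRNAs and could not be checked in these libraries. miR-210-3p, a miRNA known to be induced by HIF1 in hypoxia, had a log2 fold change of -0.19 in the hypoxic against the normoxic control (edgeR adjusted p = 0.841) and fell by 2.27 with HIF1α loss as defined below (adjusted p = 5.44e-05).

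All 7 members together with 3 other strands of the cluster took 216 to 431 CPM in each library, and miR-424-3p alone made up 32.1% to 56.7% of this. Since the mature miRNAs differ little in length, from 21 to 23 bases, counts were compared between members without a correction for length. No correction for GC content was made, so these are shares of counts and not amounts in the cells. Over all libraries, miR-424-3p was counted 30529 times, miR-503-5p 10969 times, miR-424-5p 3214 times and miR-542-3p 1017 times. miR-450a-5p had 358 to 2174 counts per library and a higher mean level than miR-503-5p in every group. miR-450b-5p had 37 to 891 counts per library. The hairpins differed in the arm that was counted. The 3p arm took 90.5% of the counts of the miR-424 hairpin and 97.9% of those of the miR-542 hairpin, whereas the 5p arm took 98.9% of those of the miR-503 hairpin. miR-503-3p had 2 to 13 counts per library. The 3p strands of the miR-450a hairpins, miR-450a-1-3p and miR-450a-2-3p, had 1 to 8 and 6 to 47 counts.

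**Figure D2:**
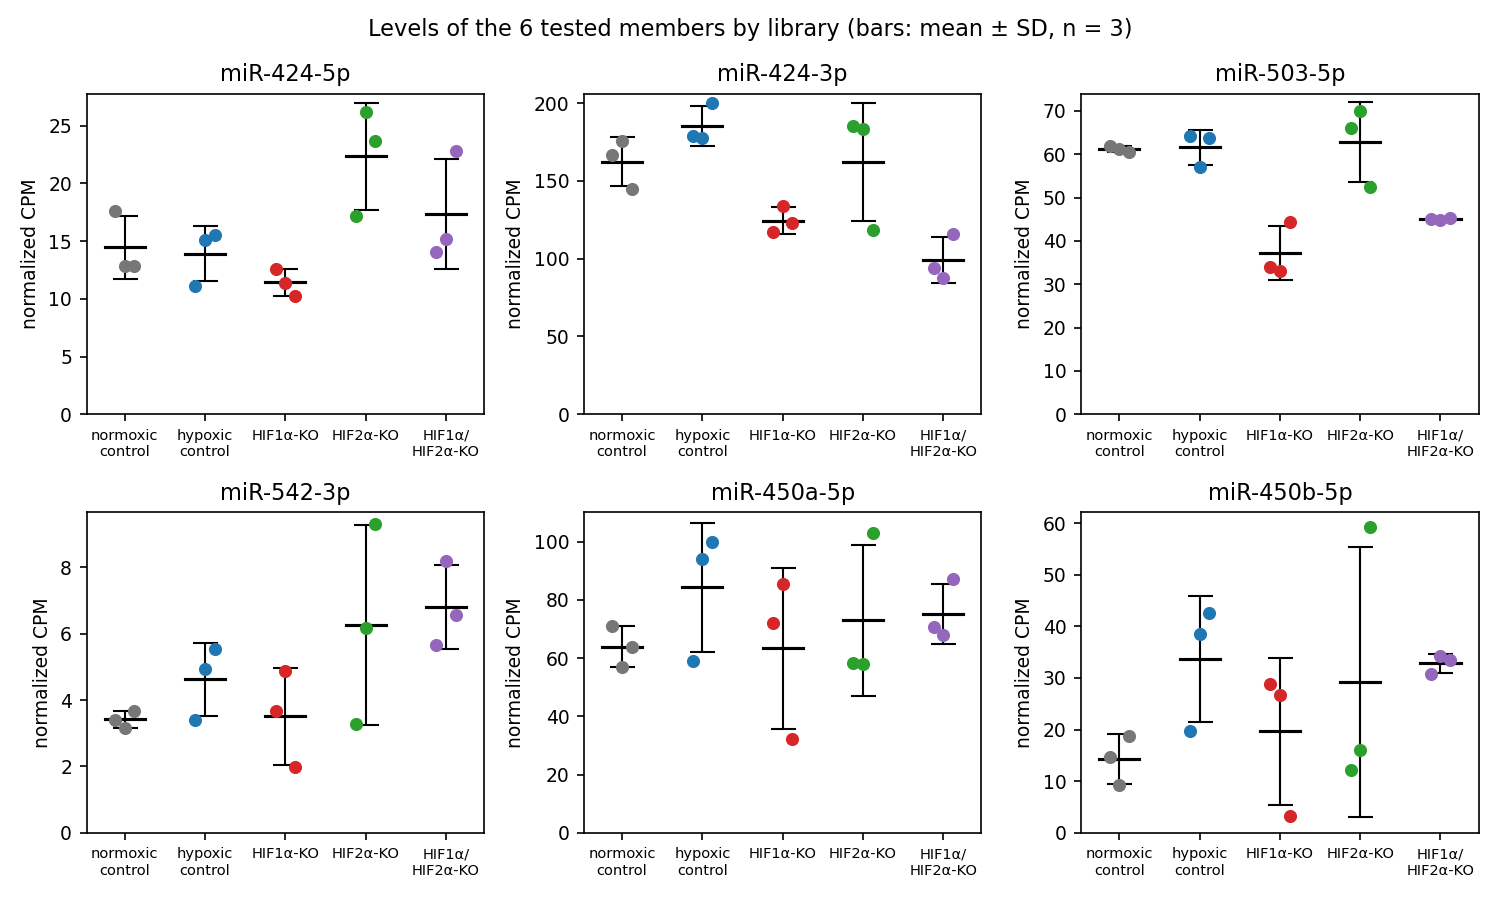
Normalized CPM of the 6 tested members in the 15 libraries by group, with points for libraries and bars for mean ± SD (n = 3). The 6 libraries of HIF1α-KO and HIF1α/HIF2α-KO cells hold the lowest values of miR-503-5p, between 33.0 and 45.3 CPM.

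miR-503-5p was lower in each group that lacked HIF1α. Its level was 62.0, 61.3 and 60.6 CPM in the normoxic control (mean 61.3 ± 0.710) and 64.2, 57.0 and 63.6 CPM in the hypoxic control (61.6 ± 4.03). It was 34.1, 33.0 and 44.4 CPM in HIF1α-KO cells (37.2 ± 6.29), and 45.2, 44.9 and 45.3 CPM in HIF1α/HIF2α-KO cells (45.1 ± 0.201). In HIF2α-KO cells it was 66.0, 69.9 and 52.5 CPM (62.8 ± 9.14). All 6 libraries without HIF1α thus lay below all 9 libraries with HIF1α, a split whose share over all miRNAs was not computed. Against the 6 hypoxic libraries with HIF1α alone, it was seen for 2.49% of all miRNAs. In HIF1α-KO against hypoxic control cells, miR-503-5p fell by 0.73 on the log2 scale (95% confidence interval -1.06 to -0.40, edgeR adjusted p = 0.0295) and was the only member to pass the test, in a comparison in which 1.25% of all tested miRNAs were called. In HIF2α-KO against HIF1α-KO cells it was 1.69-fold higher (log2 fold change 0.76, interval 0.43 to 1.09, adjusted p = 0.0254), again as the only member called, with 1.07% of all miRNAs called. In HIF1α-KO against normoxic control cells it fell by 0.72 (adjusted p = 0.0241), with 2.31% of all miRNAs called. These 3 calls were not stable. Each was lost with scaling to total counts, with limma, with no filter on low counts and in a fit of only the libraries compared, with adjusted p-values of 0.0707 to 0.428 in HIF1α-KO against hypoxic control cells, 0.0749 to 0.325 in HIF2α-KO against HIF1α-KO cells and 0.0711 to 0.197 in HIF1α-KO against normoxic control cells. The last was also lost with the miR-126 covariate (adjusted p = 0.107). The first was also lost in 5 of the 6 fits that left out 1 library, all but the fit without replicate 3 of HIF1α-KO, with adjusted p-values up to 0.254 without replicate 2 of HIF1α-KO. The call in HIF2α-KO against HIF1α-KO cells was lost in 4 of 6, with adjusted p-values of 0.171 and 0.246 without replicates 1 and 2 of HIF1α-KO and of 0.0637 and 0.0985 without replicates 1 and 2 of HIF2α-KO. The call against the normoxic control was lost in 5 of 6, again in all but the fit without replicate 3 of HIF1α-KO, with adjusted p-values up to 0.194 without replicate 2 of HIF1α-KO.

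miR-424-3p was lowest in the double knockout. Its level was 166, 176 and 145 CPM in the normoxic control (162 ± 15.6) and 179, 178 and 200 CPM in the hypoxic control (186 ± 12.9). It was 117, 134 and 123 CPM in HIF1α-KO cells (125 ± 8.42) and 94.3, 87.6 and 116 CPM in HIF1α/HIF2α-KO cells (99.3 ± 14.8). HIF2α-KO cells were split, with 185 and 183 CPM in replicates 1 and 2 and 119 CPM in replicate 3 (162 ± 38.0). All libraries without HIF1α lay below both control groups, while replicate 3 of HIF2α-KO lay among them. HIF1α-KO cells lay below the hypoxic control for 11.4% of all miRNAs and below the normoxic control for 15.5%. For the double knockout these shares were 16.7% and 21.5%. In HIF1α/HIF2α-KO against hypoxic control cells, miR-424-3p fell by 0.90 on the log2 scale (interval -1.28 to -0.53, adjusted p = 0.00688), the only member called where 5.87% of all miRNAs were called. This call held in each of the 6 fits that left out 1 library, with adjusted p-values of 0.0239 to 0.0467. Against the normoxic control the double knockout was 0.71 lower (interval -1.08 to -0.34, adjusted p = 0.0280, with 6.41% of all miRNAs called), a call lost in all 6 fits that left out 1 library, with adjusted p-values of 0.0503 without replicate 3 of HIF1α/HIF2α-KO to 0.135 without replicate 2 of the normoxic control. It was also lost with total counts, no filter and the GC offset, with adjusted p-values of 0.0522 to 0.0658. In HIF1α-KO cells miR-424-3p had a log2 fold change of -0.57 against the hypoxic control (adjusted p = 0.154).

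The effect of losing HIF1α was also taken over both backgrounds, as the mean of the difference between HIF1α-KO and hypoxic control cells and the difference between HIF1α/HIF2α-KO and HIF2α-KO cells. With HIF1α loss, 2 of the 6 tested members fell and none rose, where 7.65% of all miRNAs were called. miR-503-5p fell by 0.60 (SE 0.108, interval -0.84 to -0.37, adjusted p = 0.00674), which is a 1.52-fold decrease. Its 6 libraries without HIF1α did not overlap the 6 hypoxic libraries with HIF1α, which was so for 2.49% of all miRNAs in this direction. miR-424-3p fell by 0.64 (SE 0.123, interval -0.91 to -0.38, adjusted p = 0.00758), a 1.56-fold decrease, with an overlap due to replicate 3 of HIF2α-KO. Both calls held in each of the 12 fits that left out 1 library, with adjusted p-values up to 0.0426 for miR-503-5p and up to 0.0349 for miR-424-3p. The log2 fold changes of the other members were -0.33 for miR-424-5p (adjusted p = 0.290), -0.13 for miR-542-3p (0.820), -0.18 for miR-450a-5p (0.733) and -0.30 for miR-450b-5p (0.775). The intervals of these 4 members included 0 and reached down to -1.30 for miR-450b-5p. The values of the miR-450 members depended on the setting. With the GC content of each miRNA as an offset in the fit, a setting added after the data had been seen, miR-450b-5p passed at -0.68 (adjusted p = 0.00594) and miR-450a-5p at -0.38 (adjusted p = 0.0469), whereas without replicate 3 of HIF2α-KO miR-450b-5p was at 0.25 and miR-450a-5p at 0.0051. The median log2 fold change of the 6 members was -0.31, against -0.04 over all 562 miRNAs.

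The levels with and without HIF1α are also given on each side of the GC slope. Only 1 library without HIF1α, of HIF1α-KO, had a positive slope, and the 3 of the double knockout had a negative one. On both sides the libraries without HIF1α had less miR-503-5p, and whether the slope bears on this difference was not tested. Among libraries with a negative slope, miR-503-5p was 33.0 and 34.1 CPM in HIF1α-KO and 44.9 to 45.3 CPM in HIF1α/HIF2α-KO cells, against 57.0 and 63.6 CPM in the hypoxic control and 52.5 CPM in HIF2α-KO cells. Among those with a positive slope it was 44.4 CPM in the HIF1α-KO library, against 64.2 CPM in the hypoxic control and 66.0 and 69.9 CPM in HIF2α-KO cells. For miR-424-3p, the HIF1α-KO library with a positive slope had 123 CPM against 179 to 185 CPM in the other hypoxic libraries with a positive slope. On the negative side it was 117 and 134 CPM in HIF1α-KO and 87.6 to 116 CPM in HIF1α/HIF2α-KO cells, against 178 and 200 CPM in the hypoxic control, and the HIF2α-KO library at 119 CPM lay within the range of the libraries without HIF1α. With the GC offset, the log2 fold change of miR-503-5p with HIF1α loss was -0.55 (adjusted p = 0.00381). With the miR-126 set of the library as a covariate it was -0.61 (adjusted p = 0.00571).

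Whether the effect of losing HIF1α depended on HIF2α was tested with the interaction of the 2 knockouts, for which 0 of the 562 miRNAs (0%) were called by edgeR and an unadjusted p under 0.05 was reached by 10.5% of all miRNAs and by no member. The interaction was 0.25 for miR-503-5p (interval -0.21 to 0.72, adjusted p = 0.749) and -0.14 for miR-424-3p (interval -0.66 to 0.39, adjusted p = 0.846). These intervals include interactions as large as the effects themselves. In HIF1α/HIF2α-KO against HIF2α-KO cells no member was called, with 1.78% of all miRNAs called, although miR-424-3p was -0.71 (adjusted p = 0.0582) and miR-503-5p -0.48 (adjusted p = 0.101). The value of miR-424-3p in this comparison passed the test without replicate 3 of HIF2α-KO (adjusted p = 0.0145), and with DESeq2 Wald, at least 10 counts or the miR-126 covariate (adjusted p = 0.0143 to 0.0358).

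**Figure D3:**
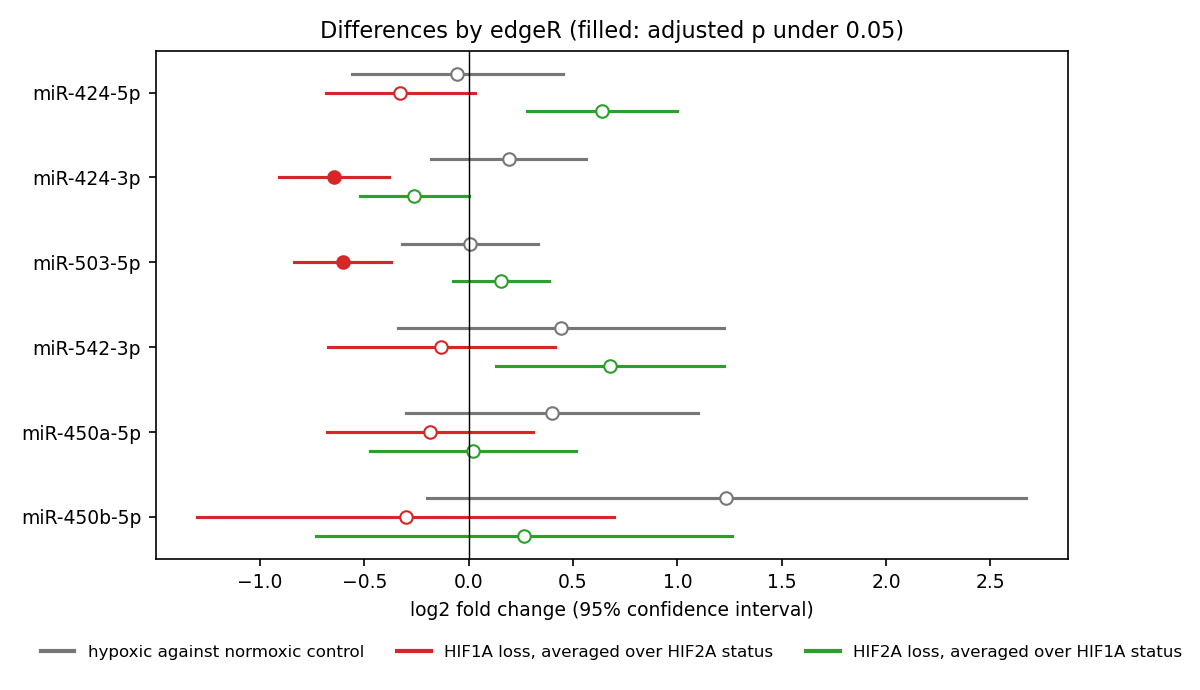
Log2 fold changes of the 6 tested members with 95% confidence intervals (x axis) from edgeR for hypoxic against normoxic control cells, HIF1A loss and HIF2A loss, with filled points for an adjusted p under 0.05. The filled points are miR-424-3p at -0.64 and miR-503-5p at -0.60, both with HIF1A loss.

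miR-424-5p, the strand of the MIR424 hairpin opposite miR-424-3p, had another order of group means, although both had negative log2 fold changes with HIF1α loss. It was 17.6, 12.9 and 12.9 CPM in the normoxic control (14.5 ± 2.74), 11.2, 15.1 and 15.5 CPM in the hypoxic control (13.9 ± 2.40) and 12.6, 11.4 and 10.2 CPM in HIF1α-KO cells (11.4 ± 1.19). It was 17.2, 26.2 and 23.6 CPM in HIF2α-KO cells (22.3 ± 4.61) and 14.04, 15.2 and 22.8 CPM in HIF1α/HIF2α-KO cells (17.3 ± 4.76). The 3 HIF2α-KO libraries lay above the hypoxic control and above HIF1α-KO cells, and the double knockout overlapped the hypoxic control. The log2 fold change of miR-424-5p was 0.68 in HIF2α-KO against hypoxic control cells (interval 0.17 to 1.19, adjusted p = 0.219), a comparison in which 0% of all miRNAs were called by edgeR and 15.3% had an unadjusted p under 0.05. All HIF2α-KO libraries lay above all hypoxic control libraries for 9.07% of miRNAs, and above all HIF1α-KO libraries for 11%. The log2 fold change of miR-424-5p was 0.97 in HIF2α-KO against HIF1α-KO cells (interval 0.46 to 1.48, adjusted p = 0.0626), with adjusted p-values under the threshold in 4 of 12 other settings. With HIF2α loss, taken over both HIF1α backgrounds in the same way as above, miR-424-5p had a log2 fold change of 0.64 (SE 0.167, interval 0.28 to 1.00, adjusted p = 0.0545), so it missed the threshold in a comparison in which 2.49% of all miRNAs were called. It passed in 3 of the 12 other settings, with limma (adjusted p = 0.0362), with DESeq2 Wald (0.0167) and with the miR-126 covariate (0.0139). Among the 12 fits that left out 1 library it passed in 1, without replicate 1 of HIF2α-KO (adjusted p = 0.0230). In the other 9 settings the edgeR adjusted p was up to 0.0947, and in the other 11 fits up to 0.141. With HIF2α loss miR-424-3p had a log2 fold change of -0.26 (interval -0.52 to 0.00266, adjusted p = 0.273), and miR-503-5p of 0.15 (interval -0.08 to 0.39, adjusted p = 0.493). In HIF1α/HIF2α-KO against HIF1α-KO cells 1.42% of all miRNAs and no member were called, with a log2 fold change of 0.60 for miR-424-5p (adjusted p = 0.256).

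Both strands come from the same hairpin and, as for any 2 miRNAs of 1 library, their ratio does not depend on how the library was scaled. It may still depend on the GC slope, since the GC content is 36.4% for miR-424-5p and 52.4% for miR-424-3p. The hairpin is shown with the 5p and the 3p strand in capitals, 15 bases apart, to place the strands (RefSeq GRCh38.p14, chrX:134546614-134546711, minus strand).
MIR424 hairpin: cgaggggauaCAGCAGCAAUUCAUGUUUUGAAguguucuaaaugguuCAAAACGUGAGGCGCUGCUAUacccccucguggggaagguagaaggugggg
The 3p strand outnumbered the 5p strand in every library. For each miR-424-5p count there were 9.42, 13.6 and 11.2 miR-424-3p counts in the normoxic control, 15.96, 11.8 and 12.9 in the hypoxic control, and 9.26, 11.7 and 11.9 in HIF1α-KO cells. There were 10.7, 7 and 5.01 in HIF2α-KO cells and 6.70, 5.77 and 5.08 in HIF1α/HIF2α-KO cells. The log2 ratio of miR-424-5p to miR-424-3p was thus -3.75 ± 0.226 in the hypoxic control, -3.45 ± 0.204 in HIF1α-KO, -2.85 ± 0.551 in HIF2α-KO and -2.54 ± 0.200 in HIF1α/HIF2α-KO cells (SD, n = 3). With HIF2α loss the log2 ratio was 0.90 higher, which is 1.87-fold (two-sided exact permutation test within HIF1α status, p = 0.005, the smallest that its 400 permutations can give). After adjustment over the 18 tests of ratios this was p = 0.09 by the permutation test, above the threshold. A single ratio at the smallest p adjusts to this value, so 1 ratio alone could not have passed. The difference in the log2 ratio remained between 0.77 and 1.04 when each of the 12 hypoxic libraries was left out. Replicate 1 of HIF2α-KO was the only library without HIF2α whose ratio overlapped that of hypoxic libraries with HIF2α. Within the libraries of negative GC slope, the log2 ratio was -3.69 to -3.21 with HIF2α and -2.74 to -2.32 without it, and within those of positive slope the hypoxic libraries with HIF2α had -4.00 and -3.58 and those without it -3.42 and -2.81. These sides hold few libraries, and no share over other pairs of miRNAs was computed. Whether the slope or the miR-126 set bears on the ratio was not tested. The ranges did not overlap on either side. Among the hypoxic libraries they did not overlap within the miR-126 sets either, with -3.69 to -3.21 against -2.81 and -2.34 in the lower set and -4.00 and -3.58 against -3.42 to -2.32 in the higher set. With HIF1α loss the log2 ratio was 0.31 higher (exact permutation p = 0.12, adjusted 0.309), and 0.44 higher without replicate 3 of HIF2α-KO (exact permutation p = 0.01).

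**Figure D4:**
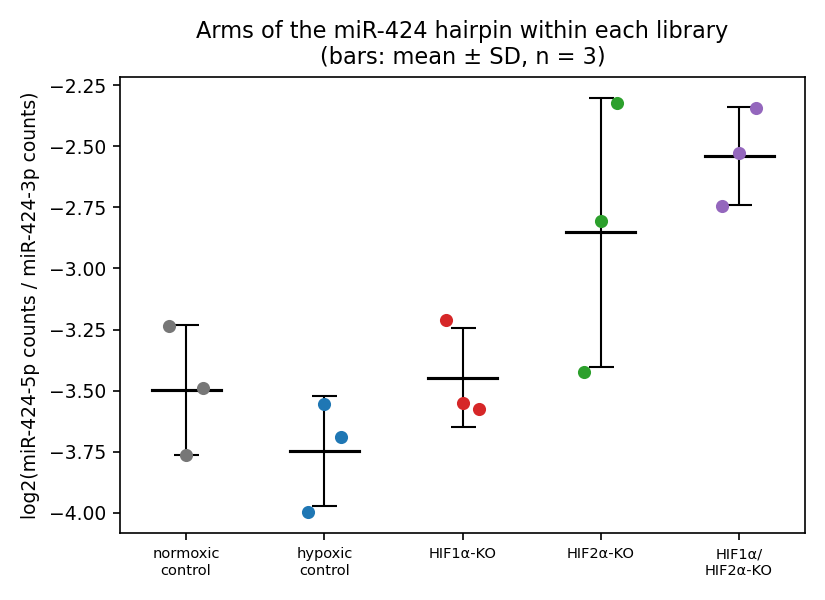
Log2 ratio of miR-424-5p to miR-424-3p counts (y axis, 0.5 added to each count) in each library by group, with bars for mean ± SD (n = 3). The 3 HIF1α/HIF2α-KO libraries lie between -2.74 and -2.34, above all 9 libraries that carry HIF2α.

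No ratio between members passed after adjustment over the 18 tests. A ratio alone at the smallest exact permutation p, 0.005, could not have passed, as it adjusts to 0.09. The log2 ratio of miR-503-5p to miR-424-5p was -0.47 with HIF2α loss (exact permutation p = 0.08, adjusted 0.3) and -0.28 with HIF1α loss (exact permutation p = 0.225, adjusted 0.506). That of miR-450a-5p to miR-424-5p was -0.56 with HIF2α loss (exact permutation p = 0.065, adjusted 0.3). For hypoxia against normoxia 3 libraries against 3 cannot give a p below 0.1, and the ratios of miR-542-3p, miR-450a-5p and miR-450b-5p to miR-424-5p each reached it, with differences of 0.46, 0.42 and 1.27 on the log2 scale (adjusted 0.3 by the exact permutation test).

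miR-542-3p was the least abundant tested member. It had 22 to 114 counts per library, and its level was 3.41, 3.16 and 3.67 CPM in the normoxic control, 3.41, 4.93 and 5.53 CPM in the hypoxic control and 3.67, 4.89 and 1.98 CPM in HIF1α-KO cells. It was 3.29, 6.19 and 9.31 CPM in HIF2α-KO cells and 5.67, 8.18 and 6.56 CPM in HIF1α/HIF2α-KO cells. The double knockout thus lay above both control groups, as did 17.4% of all miRNAs against the normoxic and 13.7% against the hypoxic control. The 3 double-knockout libraries had a negative GC slope and the 3 normoxic ones a positive slope. Over the 15 libraries the log2 CPM of miR-542-3p had a Pearson r of -0.75 with this slope. Whether the slope bears on the difference was not tested. HIF2α-KO cells overlapped every other group. The log2 fold change was 0.99 in HIF1α/HIF2α-KO against normoxic control cells (interval 0.21 to 1.77, adjusted p = 0.112), 0.55 against the hypoxic control (adjusted p = 0.403) and 0.68 with HIF2α loss (interval 0.13 to 1.22, adjusted p = 0.161). The value against the normoxic control passed in 2 of 10 other settings, with no filter (adjusted p = 0.0314) and in only the libraries compared (0.0190). That with HIF2α loss passed in 0 of 10 other settings. It passed in 1 of the 12 fits that left out 1 library, without replicate 1 of HIF2α-KO (adjusted p = 0.0458). miR-542-5p, the other strand of this hairpin, had 0 to 5 counts per library and 0 in 4 libraries, for which 3 counts set the limit of detection, so that no difference between groups could be seen at this depth.

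miR-450a-5p and miR-450b-5p varied within groups. miR-450a-5p was 71.0, 56.9 and 63.8 CPM in the normoxic control, 59.0, 94.0 and 100.0 CPM in the hypoxic control and 72.2, 85.6 and 32.2 CPM in HIF1α-KO cells. It was 58.2, 58.0 and 103 CPM in HIF2α-KO cells and 70.8, 68.0 and 87.1 CPM in HIF1α/HIF2α-KO cells. The groups overlapped throughout. miR-450b-5p was 14.7, 9.33 and 18.8 CPM in the normoxic control, 19.7, 38.5 and 42.7 CPM in the hypoxic control and 28.8, 26.8 and 3.33 CPM in HIF1α-KO cells. It was 12.2, 16.1 and 59.4 CPM in HIF2α-KO cells and 30.7, 34.2 and 33.5 CPM in HIF1α/HIF2α-KO cells. Its highest library was 17.8-fold above its lowest, against 2.12-fold for miR-503-5p. These levels moved with the GC slope of the library. miR-450b-5p was 3.33 to 19.7 CPM in the 7 libraries with a positive slope and 26.8 to 59.4 CPM in the 8 with a negative slope, without overlap. miR-450a-5p was 32.2 to 71.0 and 68.0 to 103 CPM on these sides. miR-542-3p was 1.98 to 6.19 and 3.67 to 9.31 CPM, while miR-424-5p was 10.2 to 26.2 and 11.4 to 23.6 CPM. Over the 15 libraries miR-450a-5p and miR-450b-5p followed each other (Pearson r = 0.93, Spearman rho = 0.87 on log2 CPM), which is a description of libraries that share their GC slopes and groups. The differences of both members between groups moved when the GC offset was used, as given for HIF1α loss above and for hypoxia below.

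**Figure D5:**
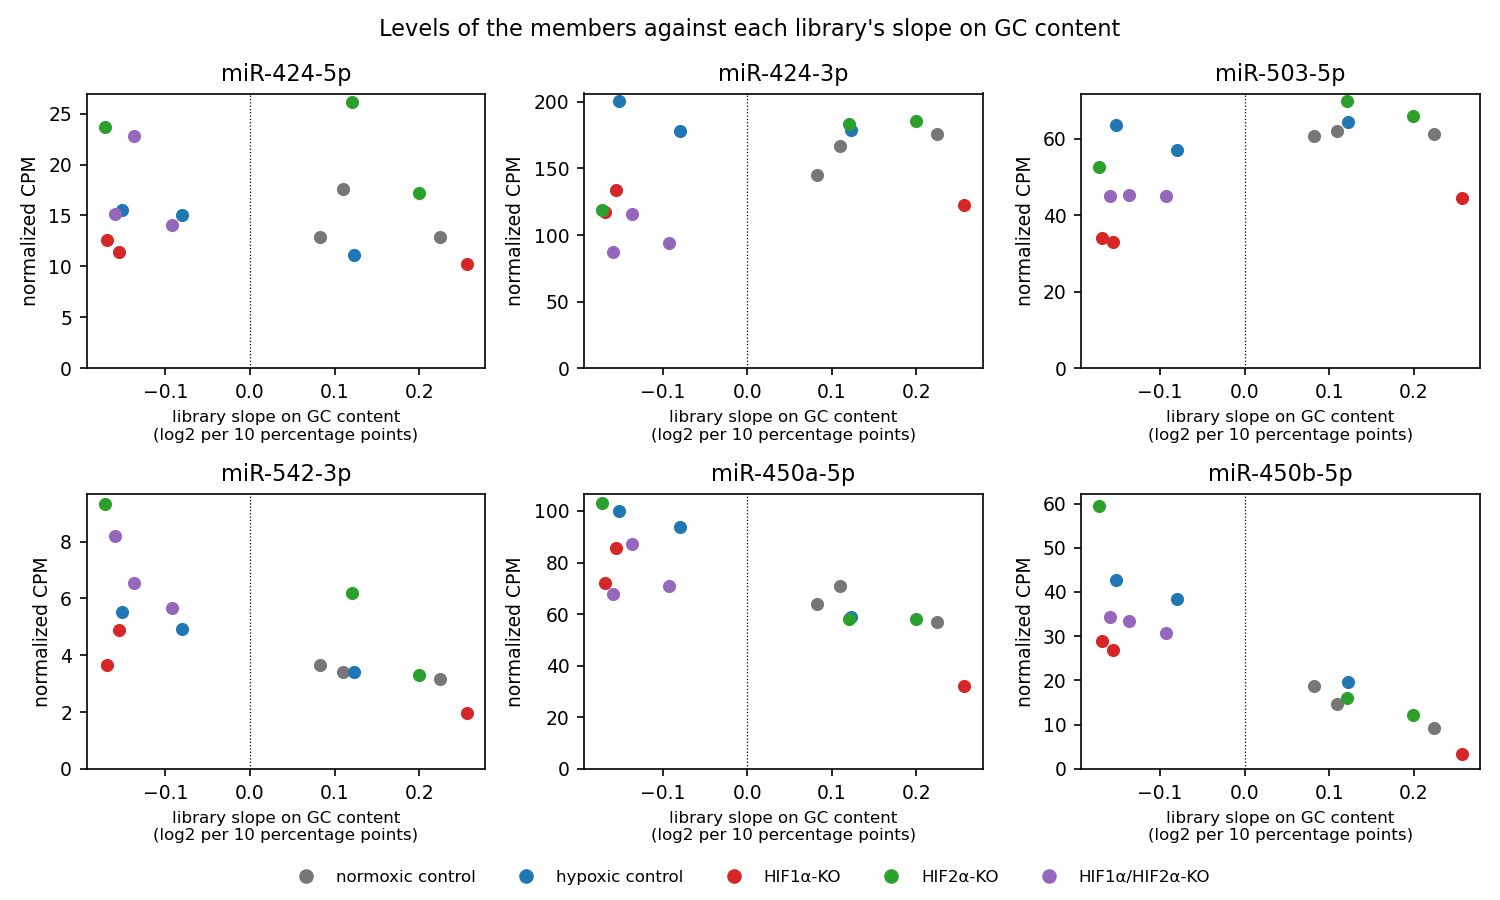
Normalized CPM of the 6 tested members (y axes) against the slope of each library on the GC content of the tested miRNAs (x axes, log2 units per 10 percentage points), coloured by group. miR-450b-5p lies at 26.8 CPM or more in the 8 libraries with a negative slope and at 19.7 CPM or less in the 7 with a positive slope.

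The comparison of hypoxic with normoxic control cells asked whether 1% O2 changed the cluster. In this comparison 0% of all miRNAs passed the edgeR test, with 6.23% at an unadjusted p under 0.05, and no member reached an unadjusted p under 0.05. The log2 fold change was -0.05 for miR-424-5p (interval -0.56 to 0.45), 0.19 for miR-424-3p (-0.18 to 0.56) and 0.01 for miR-503-5p (-0.32 to 0.33). It was 0.44 for miR-542-3p (-0.34 to 1.22), 0.40 for miR-450a-5p (-0.30 to 1.10) and 1.24 for miR-450b-5p (-0.20 to 2.67). An increase of miR-424-5p by more than 0.45 on the log2 scale therefore lay outside the interval, whereas larger changes of miR-450b-5p lay within it. miR-210-3p, known to be induced in hypoxia, also did not rise here, with means of 1188 CPM in normoxic and 1042 CPM in hypoxic libraries. The intervals therefore describe these libraries and set no general bound on the response to hypoxia. miR-450b-5p and miR-424-3p were higher in all 3 hypoxic than in all 3 normoxic libraries, which was so for 7.83% of all miRNAs. The GC slope was positive in all 3 normoxic libraries and in 1 of the 3 hypoxic ones, and with the GC offset the log2 fold change of miR-450a-5p was -0.25. That of miR-450b-5p was 0.0345 with the GC offset, and 1.28 with no filter, where it passed (adjusted p = 0.000442).

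The remaining comparisons of single knockouts are given beside the shares of all miRNAs. In HIF2α-KO against hypoxic control cells no member and 0% of all miRNAs were called by edgeR, with 15.3% at an unadjusted p under 0.05. miR-503-5p had a log2 fold change of 0.03 (interval -0.30 to 0.35), miR-424-3p of -0.19 (-0.56 to 0.18) and miR-542-3p of 0.42 (-0.35 to 1.19), which was -0.050 without replicate 3 of HIF2α-KO. In HIF2α-KO against normoxic control cells 0% of all miRNAs were called, with 15.1% at an unadjusted p under 0.05. In HIF1α-KO against hypoxic control cells miR-424-3p and miR-503-5p did not overlap the control, below it, as did 11.4% of all miRNAs, and the same 2 members lay below it in the double knockout, as did 16.7% of all miRNAs. miR-503-5p there had a log2 fold change of -0.45 (interval -0.78 to -0.12, adjusted p = 0.0754).

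The order of the levels by group differed between the members. For miR-503-5p the means rose from HIF1α-KO over HIF1α/HIF2α-KO, normoxic control and hypoxic control to HIF2α-KO cells, and no neighbours in this order differed beyond the threshold of the edgeR test, the nearest to it being the double knockout and the normoxic control (adjusted p = 0.0992). For miR-424-3p they rose from HIF1α/HIF2α-KO over HIF1α-KO, normoxic control and HIF2α-KO to hypoxic control cells, with an adjusted p of 0.438 between the first 2 groups and 0.278 between HIF1α-KO and normoxic control cells. For miR-424-5p they rose from HIF1α-KO over hypoxic control, normoxic control and HIF1α/HIF2α-KO to HIF2α-KO cells, with an adjusted p of 0.425 between the last 2 groups.

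Of the miR-15/16 family miRNAs outside the cluster, all 5 were tested, and with HIF1α loss 1 fell and none rose. This was miR-15b-5p, which fell by 0.31 (adjusted p = 0.0245). With HIF2α loss none of the 5 passed, and miR-16-5p, which at 986 to 1961 CPM was more abundant than the cluster members, had a log2 fold change of 0.43 (adjusted p = 0.0545). Of the other strands of the cluster, miR-503-3p and miR-450a-2-3p were tested and neither passed in these comparisons. Of the neighbouring cluster of miR-106a and miR-363 on Xq26, some of whose miRNAs are also made from another locus, 5 of 6 miRNAs were tested. By edgeR 0 passed with HIF1α loss or with HIF2α loss. An unadjusted p under 0.05 was reached by 0 with HIF1α loss, against 21.4% of all miRNAs. It was reached by 3 with HIF2α loss, against 18.9% of all miRNAs.

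The miRNAs whose levels were most like those of miR-503-5p over the 15 libraries, by Pearson correlation of log2 CPM among all tested miRNAs outside the list, were miR-210-5p (r = 0.90, rho = 0.74), miR-873-3p (0.86, 0.93), miR-210-3p (0.86, 0.80), miR-15b-5p (0.85, 0.76) and miR-584-5p (0.84, 0.86). Those most like miR-424-5p were miR-106b-5p (r = 0.79, rho = 0.64), miR-30b-5p (0.77, 0.55), miR-16-5p (0.75, 0.46), miR-548av-5p (0.68, 0.39) and miR-548k (0.67, 0.64). These correlations describe libraries that share groups and depth, and the lists hold no miRNA in common.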

How the data were processed

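For each of the 15 libraries the authors deposited counts of reads per mature miRNA, as whole numbers without normalization. HISAT2, StringTie and DESeq2 are named in the submitters' processing notes without their roles, and the counting tool, read filters and genome build are not given in the sources used here. The study's methods name quantile normalization with limma, which the deposited counts do not include.

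Samples were grouped by genotype, oxygen and replicate number in the labels. Counts were fitted with edgeR 4.0.16 in R 4.3.3 (TMM, filterByExpr, quasi-likelihood test, 1 model of all 15 libraries), with 13 contrasts and Benjamini-Hochberg adjustment over the 562 miRNAs tested. An adjusted p under 0.05 was called. Ratios between members (0.5 added) were compared with two-sided exact permutation tests. The members, lists and comparisons were chosen with earlier results of these data known, and the named miRNAs were the members, their relatives by seed, neighbours and the 5 most like miR-424-5p and miR-503-5p. The fits were tested on simulated data. The GC slope of a library is the regression of the miRNAs' deviations from their means on the GC content of the mature sequence, known for 91.3% of those tested. Replicates of a group differed beyond sampling noise (chi-square divided by its degrees of freedom at least 56.2), so none was a copy. The floor of 3 counts covers counting error only. Alternatives were DESeq2 1.42.0 size factors or Wald test, total counts, limma 3.58.1 on quantile-normalized log2(CPM + 1), other filters, a block for the replicate number, a fit restricted to the groups of the comparison, a covariate for the miR-126 set, miR-21-5p left out, each library left out and, added after the data had been seen, a GC offset by loess (span 0.75), which gives miR-542-3p no value. Mature sequences and promoters were taken from RefSeq and gene positions from GENCODE v29. The mature sequence of miR-542-3p was not used here, nor were miR-122-5p and miR-450b-3p analysed here.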

Additional observations from a re-analysis of the deposited data

How the results depend on the processing

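The falls of miR-424-3p with HIF1α loss and in the double knockout against the hypoxic control kept their direction and their call under all 12 other settings and in every fit that left out 1 library. That of miR-503-5p with HIF1α loss lost its call only with no filter (adjusted p = 0.0953). The number of members called with HIF1α loss was 2, with 1 under no filter, 4 with the GC offset (also miR-450a-5p and miR-450b-5p) and 3 with the GC offset and the block (also miR-450b-5p at -0.69, adjusted p = 0.0115), and 2 whenever a library was left out. In HIF1α-KO against hypoxic control cells it was 1, with 0 for total counts, limma, no filter, the replicate block and only the libraries compared, 2 with the GC offset, and 0 to 1 with a library left out. In HIF2α-KO against HIF1α-KO cells it was 1, with 0 under the same 5 settings, 2 with DESeq2 Wald, at least 10 counts, the miR-126 set and the GC offset with replicate block, 3 with the GC offset, and 0 to 1 with a library left out. In HIF1α-KO against normoxic control cells it was 1, with 0 under the same 5 settings, the miR-126 set and the GC offset with replicate block, 2 with the GC offset, and 0 to 1 with a library left out. In the double knockout against the normoxic control it was 1, with 0 for total counts and the replicate block with and without the GC offset, 2 with no filter, 4 with only the libraries compared, and 0 with any library left out. Against the hypoxic control it was 1, and 2 with at least 10 counts. In the double knockout against HIF2α-KO cells it was 0, with 1 for DESeq2 Wald, at least 10 counts and the miR-126 set, and 0 to 1 with a library left out. With HIF2α loss it was 0, with 1 for limma, DESeq2 Wald and the miR-126 set, and 0 to 2 with a library left out. Hypoxic and HIF2α-KO against normoxic control cells gave 0, and 1 with no filter. The cause of these changes was not tested.

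No value that passed the test changed its sign. Among those that did not pass, some well away from 0 did, such as miR-450a-5p under hypoxia (0.40), miR-542-3p in HIF2α-KO against hypoxic control cells (0.42) and miR-450b-5p with HIF1α loss (-0.30). For hypoxic against normoxic control cells, miR-503-5p was -0.0089 with DESeq2 size factors, -0.0097 with DESeq2 Wald, -0.0024 in only the libraries compared and -0.031 to 0.049 with a library left out, miR-424-5p was -0.15 to 0.12 with a library left out, and miR-450a-5p was -0.25 with the GC offset, with and without the block (-0.248 and -0.245). In HIF2α-KO against hypoxic control cells, miR-503-5p was -0.11 with total counts, -0.02 with no filter and with at least 10 counts (-0.0158 and -0.0222), -0.0039 without miR-21-5p, -0.00034 with the GC offset and -0.079 to 0.079 with a library left out, and miR-542-3p was -0.050 to 0.72 with a library left out. With HIF1α loss, miR-542-3p was -0.27 to 0.10, miR-450a-5p -0.30 to 0.0051 and miR-450b-5p -0.46 to 0.25 with a library left out. The interaction of miR-424-3p was 0.014 with total counts, which shift the median of all miRNAs by up to 0.20 on the log2 scale. Of 954 log2 fold changes under other settings, 864 kept their sign and their side of the threshold.

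Nothing in the labels says whether libraries of the same replicate number are paired. Libraries of the same number in 2 groups had correlations of their deviations from -0.62 to 0.55, over 0.1 in 9 of 30 pairs. Under the replicate block, miR-503-5p with HIF1α loss was at -0.60 (adjusted p = 0.0180).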
